A study of Rattus norvegicus with 4 samples.

Results

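The genes described here encode members of the Bcl2 family, which decides between survival and death of a cell at the mitochondrial outer membrane. Probe sets were taken for 10 genes, Bcl2, Bcl2l1, Bcl2l2, Mcl1, Bax, Bak1, Bok, Bcl2l11, Bad and Bid, and a probe set was counted only where one of these was its sole symbol in the array's annotation. That gave 18 of 8740 probe sets, for 8 of the genes. Mcl1 had none, and 3 probe sets that list Bax also list a second gene, so neither gene is reported.

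In this family, Bcl2 and its relatives Bcl2l1 (whose main product is Bcl-xL) and Bcl2l2 (Bcl-w) hold the membrane intact. Bak1 and Bok, like Bax, can permeabilise it and release cytochrome c, which starts the caspase cascade. Proteins that carry only the short BH3 region, such as Bim (from Bcl2l11), Bad and Bid, bind the others and tip the balance towards death. In the ischaemic brain, neurons at the border of an infarct can die by this route, and in cultured breast cancer cells Bcl2 is a known estrogen-responsive gene. The question for these arrays was whether transcripts of the family differ between estradiol and placebo groups in cortex injured by a stroke.

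RNA came from the cerebral cortex, on the stroke side, of ovariectomised female rats with 17beta-estradiol replacement (estradiol group) or placebo (placebo group). In both groups the middle cerebral artery had been closed for 2 h from within the vessel and then reopened. Each group had 2 arrays, called estradiol 1 and 2 and placebo 1 and 2, and each array held RNA pooled from 3 animals, per the series design text, which describes the pools as independent. That text names harvests at 6 and 24 h, the sample labels do not state the time in words, and no source used here gives their strain or age. All 4 arrays come from injured cortex, with no uninjured tissue analysed here, and pooling hides the spread between animals. In tissue of this kind, fewer cells of a type and less RNA per cell cannot be told apart.

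To show sequence beside the readings, 250 bases are printed for 3 family members, 5' to 3' on the strand of the gene. Each stretch lies before a RefSeq start (assembly GRCr8), which need not be the outermost start of the gene. The Bcl2l2 window overlaps the RefSeq span of its gene, and the Bad window lies within that of its gene. The 3 members are the main survival gene, Bcl2, and the genes with a match to GGTCA. These letters are the core of the element that estrogen receptors bind. Capitals mark the match. The window is chr13:23366901-23367150 (minus strand) for Bcl2, chr15:32326511-32326760 (plus strand) for Bcl2l2 and chr1:213562864-213563113 (plus strand) for Bad.
Bcl2: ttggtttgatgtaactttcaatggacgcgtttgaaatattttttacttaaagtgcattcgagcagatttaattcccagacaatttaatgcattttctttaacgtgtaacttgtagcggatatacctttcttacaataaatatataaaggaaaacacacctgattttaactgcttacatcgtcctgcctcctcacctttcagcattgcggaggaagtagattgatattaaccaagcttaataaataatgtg
Bcl2l2: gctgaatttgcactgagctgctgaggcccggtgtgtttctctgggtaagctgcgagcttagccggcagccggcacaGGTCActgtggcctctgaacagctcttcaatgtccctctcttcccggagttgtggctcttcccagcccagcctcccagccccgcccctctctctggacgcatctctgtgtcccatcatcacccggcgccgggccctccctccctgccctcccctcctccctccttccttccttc
Bad: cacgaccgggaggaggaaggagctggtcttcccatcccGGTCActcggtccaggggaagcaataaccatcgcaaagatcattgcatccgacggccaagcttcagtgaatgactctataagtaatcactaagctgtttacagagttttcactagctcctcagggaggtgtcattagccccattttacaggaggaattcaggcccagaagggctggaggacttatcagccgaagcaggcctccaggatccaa

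Windows were found for 7 of the 8 genes, with 4 alternative starts for Bcl2l1 and 10 windows in all. GGTCA or its reverse complement TGACC lay in 2 of the 10. The matches began 174 bases before the start used for Bcl2l2 and 212 bases before that used for Bad. The match in Bad lies within the RefSeq span of the gene. The same letters occurred in 35.4% of 33469 windows of this length. The paired element GGTCANNNTGACC was in 0 of the 10 windows and in 8 of all windows. The window of Bcl2 had no match, which says only that these letters are not in it.

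No difference between estradiol and placebo was called for any member. The data are linear intensities as deposited, and differences were tested with limma on log2(intensity + 16) over the 5244 probe sets whose mean reached the 40th percentile, an intensity of 37.5. Of the 18 Bcl2 family probe sets, 12 passed this filter and represent all 8 genes. In limma, 0 of the 12 passed a Benjamini-Hochberg adjusted p of 0.05, against a background of 0% called among all 5244 probe sets. All 12 had an adjusted p of 0.998, and 0 of 12 had an unadjusted p under 0.05, where 3.07% of all tested probe sets did. The smallest unadjusted p of the family in limma was 0.141, for a Bok probe set. Nearest to the filter were a Bcl2l11 probe set inside it, with a mean of 41.2, and a Bad probe set outside it, with 35.4.

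Among the tested probe sets, 8 had log2 fold changes above 0 and 4 below, with a median of 0.11 and a range from -0.33 to 0.60. After median centring or quantile normalisation the split was 7 against 5, Bid being the one that changed sign. Over all tested probe sets the median was 0.01, with 2706 above 0 and 2538 below. Counted with 1 probe set a gene, the one of highest mean, the family had 4 genes above 0 and 4 below and a median of -0.040, against 0.01 over 3181 genes. Without estradiol 1 the median over the 12 probe sets was -0.075, with 5 above 0 and 7 below. Both estradiol arrays lay above both placebo arrays in 1 of the 12 and below them in 2, where 15.4% and 14.3% of all tested probe sets did so, or 29.7% together. Over all 18 family probe sets, tested or not, the groups did not overlap in 5, 3 of them higher and 2 lower with estradiol, against 30.8% of the 8740. With 2 against 2 arrays, the smallest two-sided exact permutation p for a single probe set is 0.333.

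**Figure D1:**
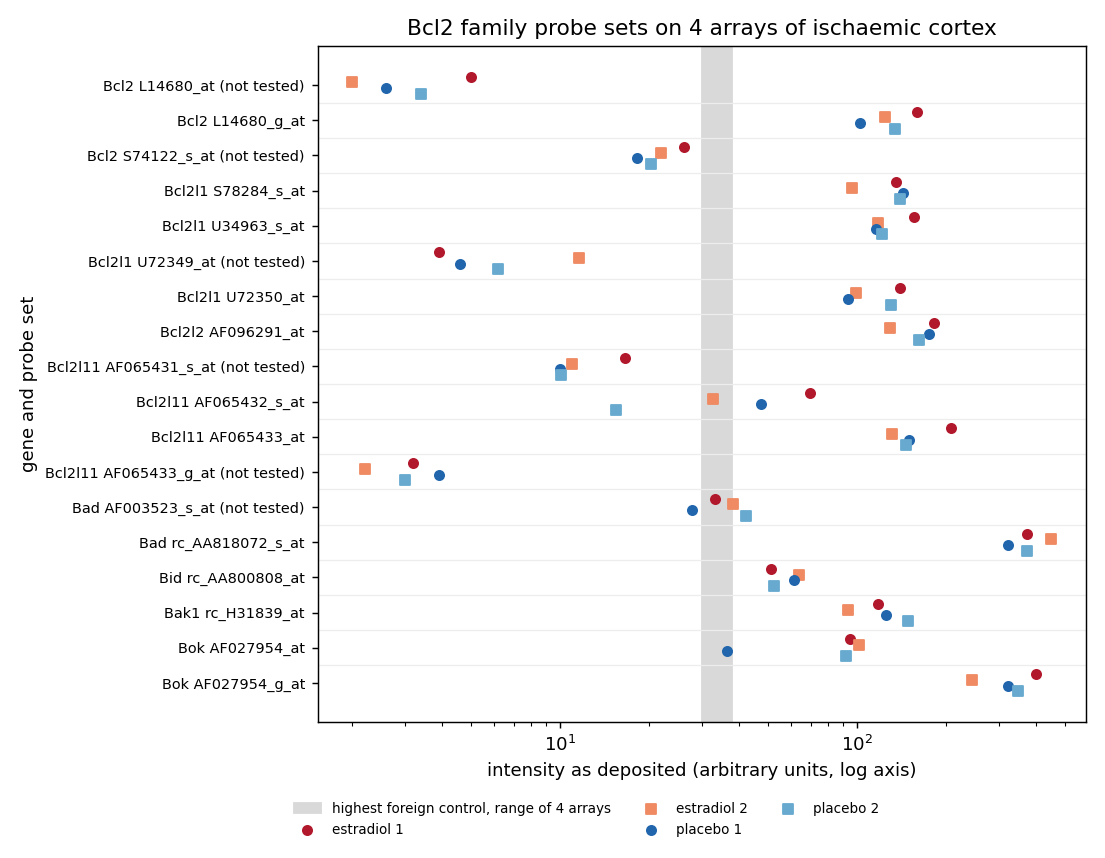
Intensity as deposited (log axis) of the 18 Bcl2 family probe sets, 1 point per array, with the 2 estradiol arrays in reds and the 2 placebo arrays in blues. The grey band spans the highest foreign control of each array, from 30.1 to 37.8, and 5 probe sets lie at or below that control on all 4 arrays, while in most others the colours intermingle.

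The background of each array was set at its brightest foreign control (of 23, for transcripts of bacteria, yeast and mouse), which stood between 30.1 and 37.8. Of the 18 probe sets, 10 were above it on all 4 arrays, 5 on none and 3 on some. Probe sets differ in how well they bind, so no level is compared between genes or between probe sets of a gene. A suffix _s_at marks probe sets that can match more than 1 transcript.

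Of the survival genes, Bcl2 was read by L14680_g_at, which gave 158.8 and 124.6 for the estradiol pools, against 102.1 and 134.0 for placebo. Estradiol 1 was the highest and placebo 1 the lowest, but placebo 2 exceeded estradiol 2, so the groups overlapped. The means were 142 ± 24.2 (SD, n = 2) for estradiol and 118 ± 22.6 for placebo. The log2 fold change was 0.24 ± 0.25 (SE), with a 95% interval from -0.34 to 0.82. With 1 array left out it lay between 0.064, without placebo 1, and 0.41, without placebo 2. The other 2 Bcl2 probe sets, L14680_at with 2.0 to 5.0 and S74122_s_at with 18.1 to 26.2, were at background on every array and were not tested. In S74122_s_at both estradiol values (26.2 and 21.9) were above both placebo values (18.1 and 20.2), all within the background, so no fold is given.

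Bcl2l1 had 3 tested probe sets that did not share a direction. S78284_s_at read 134.9 and 95.9 with estradiol and 143.0 and 139.2 with placebo. Both estradiol pools were below both placebo pools, narrowly in estradiol 1 and by more in estradiol 2. Its log2 fold change was -0.27 ± 0.25 (SE), with an interval from -0.84 to 0.30, and without estradiol 2 it was -0.058. U34963_s_at read 156.1 and 117.3 with estradiol and 116.0 and 121.5 with placebo. Here estradiol 1 stood above the other 3 arrays, which lay close together. Its log2 fold change was 0.17 ± 0.24 (SE), and -0.015 without estradiol 1.

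The third, U72350_at, read 139.5 and 99.1 with estradiol and 93.5 and 129.8 with placebo. The groups interleaved, with 1 high and 1 low pool in each. Its log2 fold change was 0.08 ± 0.27 (SE), and it turned negative without estradiol 1 (-0.13) and without placebo 1 (-0.12). The remaining probe set, U72349_at, had 3.9 to 11.6 and was at background on every array. In all 3 tested probe sets of Bcl2l1, estradiol 1 was above estradiol 2.

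Bcl2l2, read by AF096291_at, had 181.7 and 128.7 with estradiol and 174.3 and 161.1 with placebo. Both placebo values lay between the 2 estradiol values. The log2 fold change was -0.12 ± 0.24 (SE), with an interval from -0.68 to 0.45, and it was 0.11 without estradiol 2. Together the survival genes had 5 tested probe sets, 3 above 0 and 2 below, with a median of 0.08, and 0 called in limma.

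Of the genes for proteins that permeabilise the membrane, Bak1, read by rc_H31839_at, had 118.0 and 93.5 with estradiol and 124.8 and 148.1 with placebo. Both estradiol pools were below both placebo pools, and the gap between estradiol 1 and placebo 1 was the narrow one. The means were 106 ± 17.3 (SD, n = 2) and 136 ± 16.5, a log2 fold change of -0.33 ± 0.24 (SE), with an interval from -0.89 to 0.23 and an unadjusted p of 0.212 in limma. The value stayed negative with any 1 array left out, between -0.47 and -0.18, the latter without estradiol 2. Bak1 thus had the lowest log2 fold change of the family, and it did not pass.

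Bok had 2 probe sets named for the same source sequence, and they differed in sign. AF027954_at read 94.5 and 101.8 with estradiol and 36.6 and 91.8 with placebo. Both estradiol pools were above both placebo pools, but placebo 2 was close to estradiol 1, and placebo 1 alone was low, below the background of its array. The log2 fold change of 0.60 ± 0.37 (SE) was the highest of the family, with an interval from -0.25 to 1.45. It was 0.08 without placebo 1 and 1.12 without placebo 2, where its unadjusted p in limma was 0.0130 and its adjusted p 0.956.

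The other Bok probe set, AF027954_g_at, read 401.5 and 243.9 with estradiol and 322.4 and 347.2 with placebo. Both placebo values lay between the estradiol values. Its log2 fold change was -0.09 ± 0.27 (SE), and 0.25 without estradiol 2. The 3 probe sets of this role had 1 value above 0 and 2 below.

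**Figure D2:**
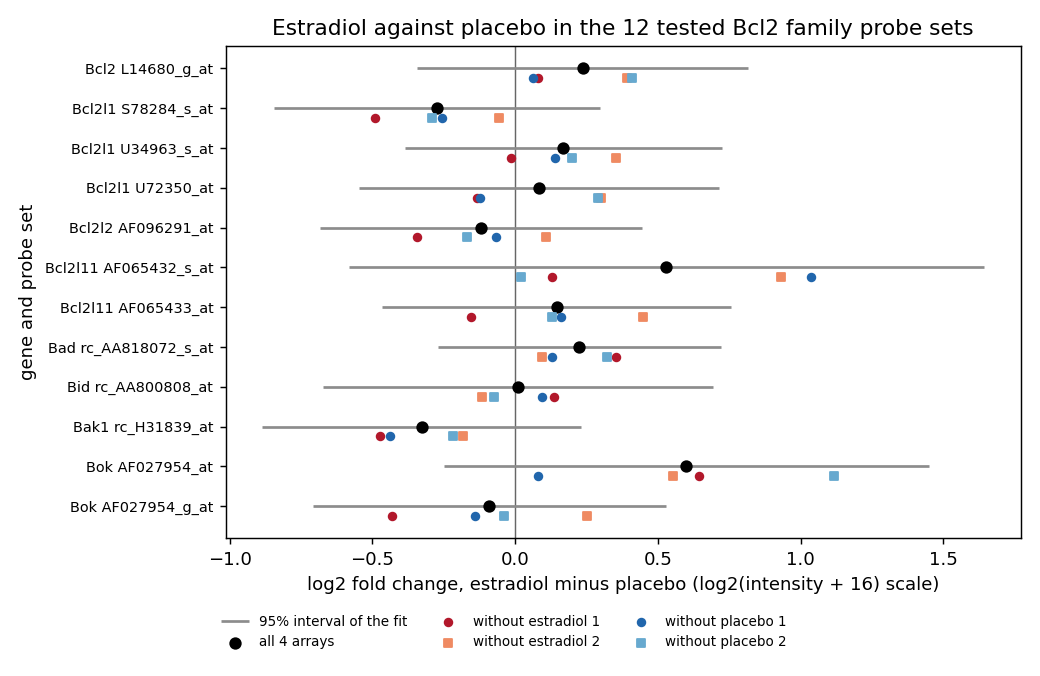
Log2 fold change of estradiol minus placebo on the log2(intensity + 16) scale for the 12 tested probe sets (black points), with the 95% interval of the limma fit (grey lines) and the value with each array left out (coloured points). All 12 intervals include 0, the values run from -0.33 for Bak1 to 0.60 for Bok AF027954_at, and the coloured points of 6 probe sets fall on both sides of 0.

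The genes for BH3-only proteins had 4 tested probe sets, all with log2 fold changes above 0, with a median of 0.19 and 0 called in limma. In Bid the value was near 0 and its sign depended on the scaling, so 3 of the 4 kept the direction under median centring and quantile normalisation. Over all tested probe sets 51.6% were above 0.

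Bcl2l11, which encodes Bim, was read by AF065433_at, which gave 207.9 and 131.3 for estradiol and 150.0 and 146.3 for placebo. Estradiol 1 was the highest and estradiol 2 the lowest of the 4, with the placebo pools between them. The log2 fold change was 0.15 ± 0.26 (SE), and -0.16 without estradiol 1. AF065432_s_at had 69.2 and 32.8 with estradiol and 47.5 and 15.4 with placebo. Pool 1 was above background and pool 2 below it in both groups, so the groups overlapped.

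Its log2 fold change was 0.53 ± 0.48 (SE), the widest error of the family, with an interval from -0.58 to 1.64. Without placebo 2 it was 0.022, and without placebo 1 it was 1.04. The 2 other Bcl2l11 probe sets were at background on every array, AF065433_g_at with 2.2 to 3.9 and AF065431_s_at with 10.0 to 16.5. In the latter both estradiol values (16.5 and 11.0) lay above both placebo values (10.0 and 10.1), within the background.

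Bad, whose protein is held inactive by 14-3-3 proteins while survival kinases keep it phosphorylated, was read by rc_AA818072_s_at. It had 372.1 and 448.5 with estradiol and 323.6 and 372.5 with placebo. Estradiol 2 was highest and placebo 1 lowest, and estradiol 1 and placebo 2 were nearly equal, so the groups touched. The means were 410 ± 54.0 (SD, n = 2) and 348 ± 34.6, a log2 fold change of 0.23 ± 0.21 (SE), the smallest error of the family, with an interval from -0.27 to 0.72. It stayed above 0 with any 1 array left out, between 0.096, without estradiol 2, and 0.35, without estradiol 1. The other probe set, AF003523_s_at, had 33.3 and 38.3 with estradiol and 27.8 and 42.3 with placebo, around the background, and fell outside the filter.

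Bid, which links death receptors to mitochondria once an initiator caspase has cleaved it, was read by rc_AA800808_at. The values were 51.2 and 63.9 for estradiol and 61.2 and 52.6 for placebo. The groups interleaved. The log2 fold change was 0.0099 ± 0.29 (SE), with an interval from -0.67 to 0.69. It was -0.11 without estradiol 2, -0.075 without placebo 2 and -0.023 after either median centring or quantile normalisation.

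The spread between the pools of a group was larger than the difference between groups in 11 of the 12 tested probe sets, taking the wider of the 2 groups, and in 81.5% of all tested probe sets. Bak1 was the exception. Estradiol 1 was above estradiol 2 in 9 of the 12, where 48.5% of all tested probe sets had that order. It was so in 5 of 5 for the survival genes, a count chosen after the values were seen. Most of those 5 probe sets read 1 gene, Bcl2l1, so they do not stand for 5 separate genes. Placebo 1 was above placebo 2 in 5 of the 12, against 45.3% of all. The largest gaps between pools on the log2(intensity + 16) scale were -1.04 in placebo for Bok AF027954_at and 1.02 in placebo and 0.80 in estradiol for Bcl2l11 AF065432_s_at.

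**Figure D3:**
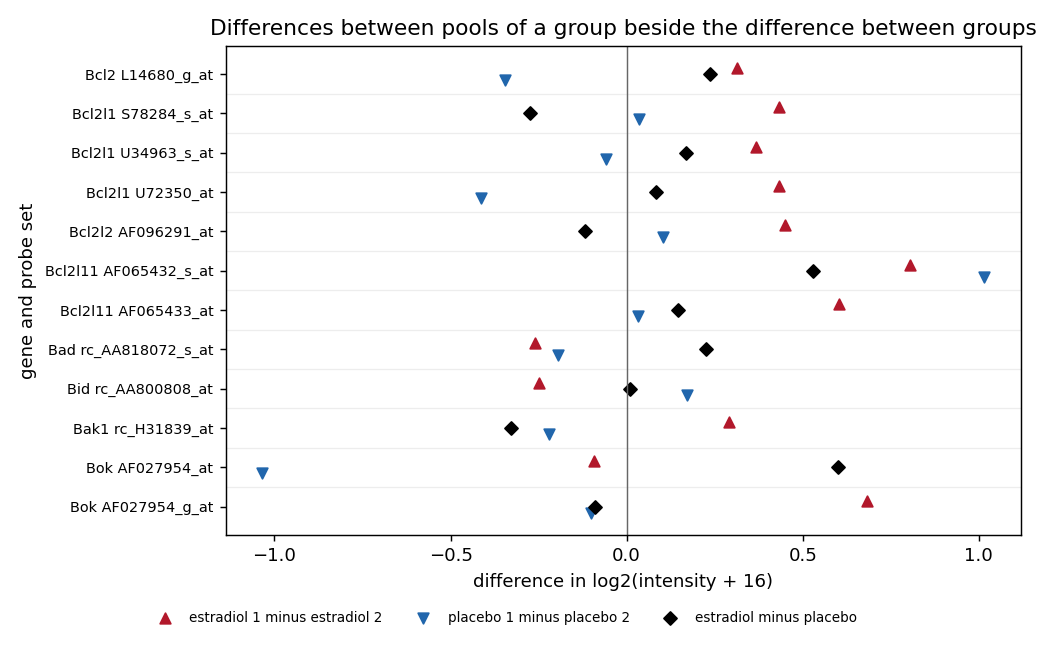
Differences in log2(intensity + 16) for the 12 tested probe sets, between estradiol pools 1 and 2 (red triangles), placebo pools 1 and 2 (blue triangles) and the estradiol and placebo groups (black diamonds). The red triangles are to the right of 0 in 9 of 12 rows, and in 11 rows at least 1 triangle is farther from 0 than the diamond.

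Cell type markers also varied between the arrays. Of 14 neuron markers, 10 had a probe set of their own and 9 were tested. The summed intensities of the 9 ran from 6538 to 9236. Of 7 blood cell markers, 5 were tested, and all 5 were lower in both estradiol pools than in both placebo pools, as were 14.3% of all tested probe sets, with sums of 1872 and 4249 against 6173 and 5319. Choroid plexus and meninges markers, 7 of 9 tested, summed to 2366 and 6912 with estradiol and 12866 and 1339 with placebo. Much of the difference between these sums lay in 1 gene, Ttr, with 165.3 and 4311.9 against 8034.3 and 74.3. The sums of 7 of 11 striatum markers were 2552 and 2332 with estradiol and 1728 and 1697 with placebo. A large part of each sum lay in 1 gene, Pdyn, with 1149.6 and 686.9 against 1065.6 and 923.4. By gene, the median log2 fold change of the 7 was 0.81, with 5 above 0 and 2, Pdyn among them, below. Of the 7, 4 were higher in both estradiol pools than in both placebo pools, as were 15.4% of all tested probe sets. Of 9 vascular markers, 5 were tested, with sums of 530 and 489.5 against 724 and 646. Tested oligodendrocyte markers, 6 of 7, summed to 12942 to 21444, astrocyte markers, 6 of 7, to 8538 to 9357, microglia and macrophage markers, 6 of 9, to 834 to 1138, and neutrophil markers, 2 of 6, to 131 to 302. Of listed markers, 5 of blood cells, 7 of choroid plexus and meninges, 8 of striatum and 7 of vascular cells had their own probe sets. The same held for 6 of oligodendrocytes, 6 of astrocytes, 8 of microglia and macrophages and 3 of neutrophils. Tested markers had passed the intensity filter, so it was fixed in advance that they gave a reading. The part of these cells in the values of the family was not tested.

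The genes around the family were summarised in 4 lists, each gene by its tested probe set of highest mean. In limma 0 genes of these lists passed the adjusted threshold in either direction. Of 22 other relatives and partners of Bcl2 listed, 4 had a probe set of their own. All 4 were tested, with a median log2 fold change of 0.02. The mitophagy receptor gene Bnip3l had 0.06, Hrk, a BH3-only gene of neurons, 0.02, the autophagy gene Becn1, whose protein binds Bcl2, 0.02 and Tmbim6, also called Bax inhibitor 1, -0.20. For Bnip3l, Hrk and Becn1 the sign changed with 1 array left out, to -0.17 without estradiol 2, -0.36 without placebo 1 and -0.13 without placebo 1, for Hrk and Becn1 also after median centring, and for Hrk after quantile normalisation. Becn1 was also below 0 without estradiol 1 (-0.076). The other tested probe set of Hrk gave -0.19 with all arrays. Tmbim6 read 779.1 and 880.7 with estradiol and 947.7 and 954.0 with placebo, so its groups did not overlap, and it ran from -0.28 to -0.11 with 1 array left out.

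Factors released from mitochondria, pore proteins, caspases and their inhibitors gave 10 tested genes, of 12 with a probe set of their own and 32 listed. Of the 10, 4 were above 0 and 6 below, with a median of -0.04. Highest were Aifm1, the apoptosis-inducing factor of mitochondria, with 0.69 ± 0.42 (SE), and Casp2, an initiator caspase, with 0.28. Aifm1 read 56.8 and 120.8 with estradiol and 30.3 and 66.1 with placebo, which overlapped. Its log2 fold change was 0.24 without estradiol 2, 0.28 without placebo 1, 1.15 without estradiol 1 and 1.11 without placebo 2. Casp2 was -0.33 without placebo 2, and its other tested probe set gave -0.19. Lowest were Tspo, the translocator protein of the outer membrane, with -0.12, and the adenine nucleotide carrier gene Slc25a5 with -0.17. Tspo was 0.024 without placebo 1. Slc25a5 was -0.042 without placebo 2 and -0.30 without placebo 1. Only Slc25a5 of the 10 had groups that did not overlap, with both estradiol arrays below, as in 14.3% of all tested probe sets.

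Kinases and phosphatases that act on Bad, and the 14-3-3 proteins that hold it, made a list of 27. Of these, 20 had a probe set of their own and 17 were tested, with 8 above 0, 9 below and a median of -0.10. Akt2, a survival kinase, had 77.1 and 74.6 with estradiol and 49.1 and 53.5 with placebo. These groups did not overlap, and the log2 fold change was 0.45 ± 0.27 (SE), between 0.40 and 0.50 with any 1 array left out. Akt1, the related kinase gene, had -0.24 in the brighter probe set (-0.16 without estradiol 2) and -0.79 in the other tested one, with an unadjusted p of 0.0273 in limma. Prkacb, a catalytic subunit of protein kinase A, had 0.40, but -0.30 in its other tested probe set, and the former was 0.22 without placebo 1 and 0.26 without estradiol 2. Ppp1ca, a catalytic subunit of protein phosphatase 1, read 538.3 and 465.9 with estradiol and 646.3 and 723.4 with placebo. Its groups did not overlap, with a log2 fold change of -0.44 ± 0.20 (SE) and an unadjusted p of 0.0634 in limma. With 1 array left out it lay between -0.54 and -0.34. Of the 17 genes, 3, Akt2 and Prkacb among them, had both estradiol arrays above the placebo arrays. In 3, Akt1 and Ppp1ca among them, both were below. These shares were close to the 15.4% and 14.3% of all tested probe sets.

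Transcription factors and stress kinases known to act on family genes made a list of 29. Of these, 19 had a probe set of their own and 15 were tested, with 8 above 0, 7 below and a median of 0.01. Ddit3, which encodes the stress factor CHOP, was highest, with 119.6 and 204.1 in the estradiol arrays against 103.6 and 74.8. The groups did not overlap, and the log2 fold change was 0.73 ± 0.30 (SE), with an unadjusted p of 0.0440 in limma, the only one under 0.05 among the 46 genes of these lists by their brightest probe sets. It was 0.38 without estradiol 2. Nfkb1, a subunit of NF-kappaB, had 0.40 with all arrays and 0.018 without placebo 2. Lowest were Mapk14, the stress kinase p38 alpha, with -0.35, and Crem with -0.50, each in its brightest probe set. Other tested probe sets of Mapk14 gave -0.13, 0.02 and 0.39, and that of Crem gave 0.14. Without placebo 1 the named values were -0.053 for Mapk14 and -0.040 for Crem. Of the 15 genes, 2, Ddit3 among them, had both estradiol arrays above the placebo arrays, and 2, Crem among them, had both below. The shares over all tested probe sets were 15.4% and 14.3%.

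**Figure D4:**
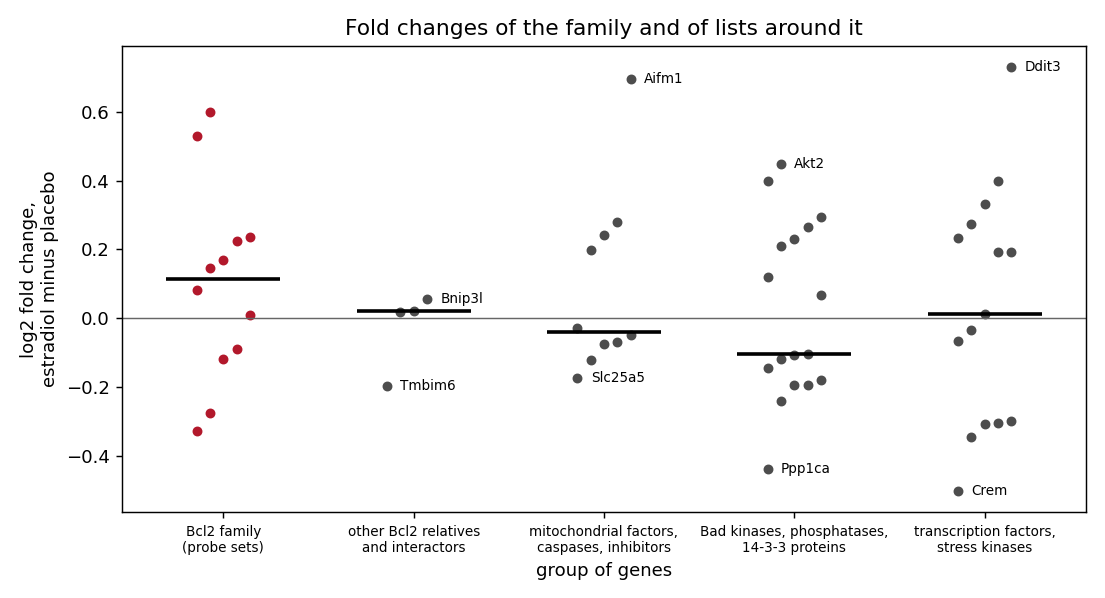
Log2 fold change of estradiol minus placebo for the 12 tested Bcl2 family probe sets (red) and for the tested genes of 4 lists around the family (grey, 1 probe set a gene), with medians as black bars and the highest and lowest gene of each list named. The 5 medians lie between -0.10 and 0.11, and no point passed the adjusted threshold in limma.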

How the data were processed

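RNA was measured on 4 Affymetrix arrays (array A of the rat U34 set), 2 per group, as the labels and the design text of the series say. The deposited values are linear intensities, 1 per probe set and array, and the authors' columns have 2% trimmed means between 150.18 and 150.20, so arrays had been scaled alike. No source used here names the program. Array medians differed by at most 0.056 on the log2 scale and were left as they were.

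The 59 control probe sets were left out. Of 8740 others, 7006 had 1 gene symbol in the platform annotation, 308 several and 1426 none. All 18 member probe sets matched a RefSeq gene of assembly GRCr8, with 0 symbols changed. Promoter sequences are RefSeq's, of the same assembly. No genome build is named for the array, so genes are given no other coordinates.

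Intensities were transformed as log2(value + 16), which understates changes of dim probe sets. Estradiol and placebo were compared with limma 3.58.1 in R 4.3.3 (lmFit, eBayes with intensity trend, two-sided, 2 residual and 5.63 prior degrees of freedom), with Benjamini-Hochberg adjustment over 5244 probe sets. The code was tested on simulated data. The small number of arrays limits precision. Members and lists were chosen with earlier results of these data known. Named are every member probe set and the 2 highest and 2 lowest genes of each list. Each list gene stands by its probe set of highest mean. Alternatives were other offsets, filters, scalings, variance models, a replicate block and leaving out each array. Counting 1 probe set a gene was chosen after seeing the data. Python 3.11.15, pandas 2.3.3 and matplotlib 3.10.9 made tables and plots.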

Additional observations from a re-analysis of the deposited data

How the results depend on the processing

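Under 12 other settings, 0 probe sets of the family were called in limma, as with the reported settings, and so was 0 with 1 probe set a gene, chosen after seeing the data. Their smallest adjusted p over these settings was 0.956, without placebo 2, the only setting in which 1 member had an unadjusted p under 0.05. The median log2 fold change of the family lay between 0.081 and 0.12 with other offsets, scalings and filters or without the intensity trend, and between -0.075 and 0.28 with 1 array left out. Bid changed sign to -0.023 with quantile normalization and with median centring. The filter at the 60th percentile removed 3 of the 12 probe sets, which have no value there. With 1 array left out, sign changes were seen in Bok AF027954_g_at (-0.43 to 0.25), Bcl2l11 AF065433_at (-0.16 to 0.45), Bcl2l2 (-0.34 to 0.11), Bid (-0.11 to 0.13), and Bcl2l1 U34963_s_at (-0.015 to 0.35) and U72350_at (-0.13 to 0.30). The lone array of a group is then assumed to vary like the other group. The cause of these changes was not tested.

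Array titles number the pools 1 and 2 in both groups. Across probe sets the correlation between the pool differences of the groups was 0.036. A correlation over all probe sets can miss shared handling that affects few of them, and such handling was not tested. With the number as a replicate block the median of the family was 0.11, and 0 of its 12 probe sets and 0 of 5244 probe sets in all were called in limma, with 210 at an unadjusted p under 0.05, against 161 without the block. Signal over background limits 8 of the 18 probe sets, which were at background on at least 1 array.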
